A study of Mus musculus with 2 samples.

Results

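A set of 10 genes that carry dietary lipid through the enterocyte, the absorptive cell of the small intestine, were followed in mouse intestinal organoids cultured with or without RankL. They were listed by symbol, under a rule that sets no threshold on measured values, and found on the array through the RefSeq accessions of its probes. All 10 were measured, by 18 probes, among 12877 measured genes or accessions. They were the cytosolic lipid-binding proteins Fabp1, Fabp2 and Rbp2, the apolipoproteins Apoa1, Apoa4, Apob and Apoc3, the lipid assembly proteins Mttp and Dgat1, and the membrane receptor Cd36.

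Fatty acids, monoglycerides and retinol enter the enterocyte at its brush border, are bound in the cytosol by small carrier proteins and are esterified again at the endoplasmic reticulum. Mttp then loads the triglyceride onto Apob, and the particle leaves the cell toward the lymph as a chylomicron that also carries Apoa1, Apoa4 and Apoc3. These genes are hallmarks of mature enterocytes, above all in the upper part of the villus, and several of them are also expressed in liver.

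Organoids are epithelial structures that grow from intestinal crypts in culture, here from small intestine of wild-type mice in medium with EGF, Noggin and R-spondin. One group received recombinant mouse RankL, the ligand of the receptor RANK and an inducer of M cells, in a range of 50 to 200 ng/ml, and the medium was renewed on day 2 and day 5. The control group was untreated organoids of the same source. The sources used here do not give the dose and harvest time of these RNAs or the number of animals and cultures behind them. Total RNA of both groups was labelled with Cy3 or Cy5 and hybridised together on 2 Agilent arrays of 1 slide, array 1 carrying RankL in Cy3 and array 2 carrying it in Cy5. The second array is the dye swap of the first, so both read the same RNA pair. With 1 replicate per group no test was possible.

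Every ratio below is log2 of RankL over untreated, and ± gives the SD over the 2 arrays, which measures technical error and not the variation from culture to culture. A gene was called higher or lower when its mean differed from 0 by 1 or more (2-fold) and both arrays gave 0.5 or more with that sign. By this rule 704 genes (5.47%) were higher and 322 (2.5%) lower with RankL, the median gene was at 0.0086, and the SD of the arrays had a median of 0.148 and a 90th percentile of 0.382. Between 38.3% and 43.4% of the 43379 non-control spots were well above background in each RNA on each array, and 0 spots were saturated. All 9 epithelial markers were measured, at -0.92 to 2.40, whereas 0 of 4 endothelial, 0 of 5 adipocyte and 0 of 5 hepatocyte markers were, with 3 of 8 for fibroblasts and 1 of 7 for leukocytes. All 7 M cell markers were higher, at 2.58 to 6.0. In such whole-organoid RNA, fewer cells of a type and less RNA per cell cannot be told apart, and the part of a changed share of M cells or enterocytes in the values below was not tested.

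All 4 apolipoprotein genes were higher with RankL by their brightest probes, with a median of 1.93, though Apob was not when its 5 probes were averaged, at 0.53. In contrast, the 3 cytosolic lipid-binding genes took different courses: Fabp1 was far lower, Fabp2 was higher at the limit of the rule, and Rbp2 met it in neither direction. Neither assembly gene and not the receptor Cd36 met the rule. In total 5 of 10 genes were higher, against 5.47% of all measured genes, and 1 of 10 was lower, against 2.5%. Their median was 0.45, at 0.53 on array 1 and 0.39 on array 2. As the genes were chosen with earlier results of these data known, these counts describe the list and are not evidence that it stands apart.

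**Figure D1:**
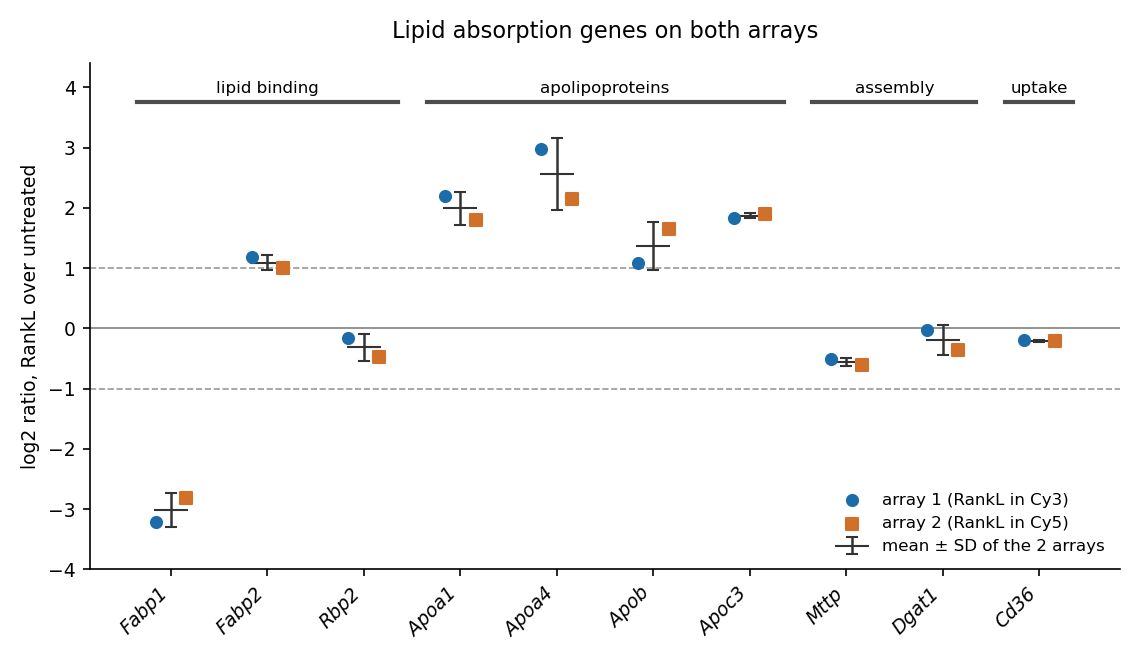
Log2 ratio of RankL over untreated organoids (y axis) for the 10 lipid absorption genes, grouped by role (x axis), with blue circles for array 1, orange squares for array 2, and bars for the mean ± SD of the 2 arrays. Dashed lines mark 1 and -1. Fabp1 lies near -3 on both arrays, the 4 apolipoprotein genes lie above 1 on both, and Rbp2, Mttp, Dgat1 and Cd36 lie between -1 and 0.

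Fabp1 encodes the liver-type fatty acid-binding protein, an abundant carrier of long-chain fatty acids in liver and in proximal enterocytes. Its spot signal minus local background in untreated RNA was 71808.5 on array 1 and 91058 on array 2. With RankL it was 5099.5 on array 1 and 11699 on array 2. The untreated signals were thus far above both RankL signals, whichever dye each RNA carried. In proportion to their size, the RankL signals differed more between the arrays than the untreated ones did. The ratio was -3.22 on array 1 and -2.82 on array 2, with a mean of -3.02 ± 0.29, or 8.1-fold lower. Fabp1 ranked 8 from the lowest of the 12877 measured genes. One probe measured it, and over all processing alternatives its ratio stayed between -3.35 and -2.82.

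Apoa4 encodes apolipoprotein A-IV, which enterocytes secrete on chylomicrons when lipid is absorbed. Its net signal in untreated RNA was 1764 on array 1 and 2189.5 on array 2, and with RankL it was 10957.5 and 9406.5. Both RankL signals lay above both untreated signals, the opposite order from Fabp1. The ratio was 2.98 on array 1 and 2.15 on array 2, with a mean of 2.56 ± 0.59, or 5.92-fold higher. The arrays differed more for Apoa4 than for most measured genes, since its SD exceeded the 90th percentile of 0.382, yet both of its values were over 2. Apoa4 ranked 118 from the highest and, like Fabp1, had 1 probe.

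Fabp1 and Apoa4, the lowest and highest of the 10 genes, were set against each other with earlier results of these data known. A wide gap thus followed from the choice of the pair, and its size describes that pair only. The difference of their log2 ratios, Fabp1 minus Apoa4, was -6.20 on array 1 and -4.96 on array 2, with a mean of -5.58 ± 0.88, so that the balance of the transcripts shifted 47.9-fold. It lay between -6.20 and -4.96 under every processing alternative tried, which included each array alone. It is a difference of changes and does not compare their amounts, since the signals of different probes have no common scale.

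**Figure D2:**
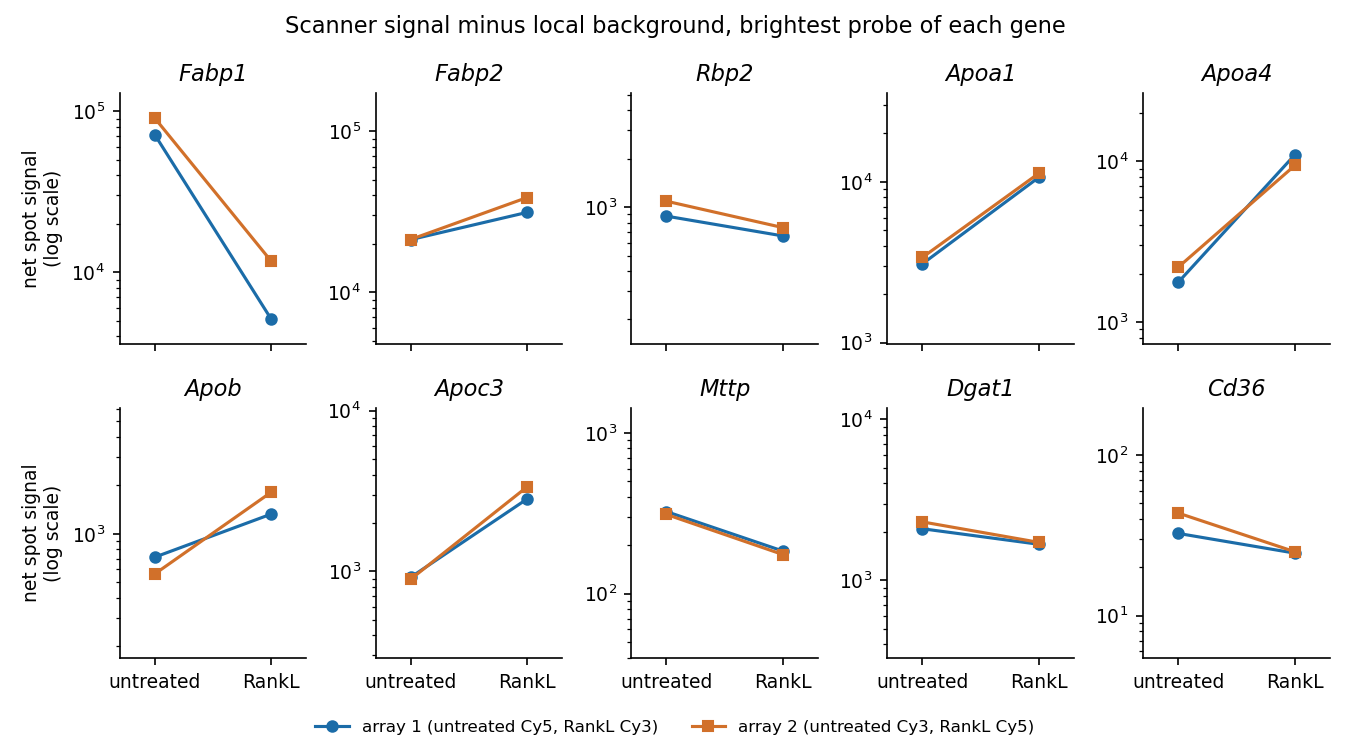
Spot signal minus local background on a log scale (y axis) in untreated and RankL RNA (x axis) for the brightest probe of each gene, with blue circles for array 1 and orange squares for array 2. The panels span the same number of log units, so that slopes compare between panels while heights do not. Fabp1 drops steeply on both arrays, Apoa4, Apoa1 and Apoc3 climb on both, and Rbp2, Mttp, Dgat1 and Cd36 slope down far less than Fabp1.

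The promoters of this contrasting pair, and of Apoa1, which lies in the same gene cluster as Apoa4 on chromosome 9 and was also higher, are shown because the pair moved in opposite directions. Each is the 250 bases before the gene start in RefSeq's table for GRCm38.p6, on the plus strand, 5′ to 3′, with capitals for matches to the motifs given after them. The windows are chr6:71199629-71199878 for Fabp1, chr9:46240594-46240843 for Apoa4 and chr9:46228380-46228629 for Apoa1.
Fabp1: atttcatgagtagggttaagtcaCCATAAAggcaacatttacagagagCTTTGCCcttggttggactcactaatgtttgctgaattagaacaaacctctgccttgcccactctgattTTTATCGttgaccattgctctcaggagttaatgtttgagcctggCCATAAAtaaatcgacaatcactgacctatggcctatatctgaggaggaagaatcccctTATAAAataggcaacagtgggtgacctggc
Apoa4: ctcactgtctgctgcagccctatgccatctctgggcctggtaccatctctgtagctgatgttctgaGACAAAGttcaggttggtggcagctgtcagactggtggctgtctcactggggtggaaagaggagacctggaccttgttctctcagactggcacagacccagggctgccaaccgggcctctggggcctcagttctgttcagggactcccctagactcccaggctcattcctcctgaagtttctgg
Apoa1: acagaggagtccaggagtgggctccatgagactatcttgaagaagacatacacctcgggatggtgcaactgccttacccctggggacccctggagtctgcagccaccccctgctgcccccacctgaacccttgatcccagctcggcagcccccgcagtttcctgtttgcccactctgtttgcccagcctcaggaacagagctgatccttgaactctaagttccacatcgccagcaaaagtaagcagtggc

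The Fabp1 window was 42.8% G or C, the Apoa4 window 57.6% and the Apoa1 window 58%. Motifs were searched on both strands of the windows. Those of factors of enterocyte differentiation were the GATA motif AGATAA, the CDX motif TTTATNG and the HNF4 motif CAAAGTCCA. The others were GNCAAAG, a core of the direct repeats that HNF4 and PPAR factors bind, the NF-kB motif GGANTTTCC, the Ets motif GAGGAAGT and the TATA box TATAAA.

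Fabp1 held 5 matches, of which 3 were CDX motifs, starting 227, 133 and 89 bases before the gene start. A direct-repeat core began at 202 and a TATA box at 30 bases before it. Apoa4 held a direct-repeat core alone, in the sense direction, starting 184 bases before the gene start, and the Apoa1 window held 0 matches. A match describes letters and is neither a site nor a cause, and no match says only that the letters are not in the window.

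Of the 10 genes, 8 had a promoter in the table, all but Apoc3 and Dgat1. The direct-repeat core was in 5 of these 8 promoters (Fabp1, Apoa4, Apob, Mttp and Rbp2) and in 14.9% of all 32851 promoters in windows of the same length. Genes that were higher, lower and neither thus all held it. The CDX motif was in 4 of 8 (Fabp1, Fabp2, Rbp2 and Apob) and in 9.81% of all promoters. The TATA box was in 3 (Fabp1, Rbp2 and Apob) and in 12.4% of all, and it overlapped the CDX match in Rbp2 and in Apob. The GATA motif was in Rbp2 alone and in 9.99% of all promoters. The HNF4, NF-kB and Ets motifs were in 0 of the 8 and in 0.384%, 1.07% and 2.44% of all.

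Fabp2 and Rbp2 are the other small carriers of the enterocyte cytosol, for fatty acids and for retinol. Fabp2, the intestinal-type fatty acid-binding protein, gave net signals of 21218.5 and 21264 in untreated RNA and of 31365 and 38807.5 with RankL on arrays 1 and 2. RankL was the higher RNA on both arrays. After dye normalization, which shifts the ratio of bright spots between the dyes, the log2 ratio was 1.18 and 1.00, with a mean of 1.09 ± 0.13, or 2.13-fold higher. Fabp2 was just inside the rule, and with median centring in place of loess its ratio was 0.74, outside it. A dimmer probe of the gene read 1.06 on array 1 and 0.12 on array 2, with a mean of 0.59 ± 0.67.

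Rbp2, the cellular retinol-binding protein of enterocytes, gave net signals of 879 and 1088.5 in untreated RNA and of 661.5 and 745.5 with RankL. RankL was the lower RNA on both arrays, by a small margin. The ratio was -0.16 on array 1 and -0.47 on array 2, with a mean of -0.32 ± 0.22, and the dimmer probe read -0.48 ± 0.20. Rbp2 thus lay below 0 with both probes and met the rule with neither.

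The fatty acid carriers therefore diverged, Fabp1 downward and Fabp2 upward. Fabp1 minus Fabp2 was -4.11 ± 0.42, a 17.3-fold shift of their balance, and Fabp1 minus Rbp2 was -2.70 ± 0.51. Fabp2 minus Rbp2 was 1.41 ± 0.091, a difference that the arrays gave nearly alike. Each of these differences was several times the SD of the arrays.

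Apoa1 encodes apolipoprotein A-I, the main protein of high-density lipoprotein, which intestine and liver both secrete. Its probe was printed 10 times on each array. The mean net signal was 3087.8 and 3386.2 in untreated RNA and 10676.1 and 11313 with RankL on arrays 1 and 2. Every RankL spot was brighter than every untreated spot. Before background subtraction, RankL spots ran from 8665 to 13907 on array 1 and from 8801 to 14892.5 on array 2. Untreated spots ran from 2513.5 to 3894 and from 2641.5 to 4325. The log2 ratio of single spots was 2.03 to 2.34 on array 1 and 1.61 to 2.05 on array 2, so that the spots of the 2 arrays barely overlapped. The mean was 2.00 ± 0.27, or 3.99-fold higher. Within an array the SD over the 10 spots was 0.108 and 0.114, less than the SD between the arrays.

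Apoc3 encodes apolipoprotein C-III, an inhibitor of lipoprotein lipase and of the clearance of triglyceride-rich particles. Its net signal was 917 and 891.5 in untreated RNA and 2820 and 3355 with RankL. The ratio was 1.84 on array 1 and 1.90 on array 2, with a mean of 1.87 ± 0.039, or 3.65-fold higher. It was the apolipoprotein on which the arrays differed least, and its other probe read 1.74 ± 0.22, so that both probes met the rule.

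Apob is the structural protein of the chylomicron, without which no particle forms. Its brightest probe gave net signals of 715 and 562 in untreated RNA and of 1326.5 and 1815.5 with RankL. The ratio was 1.08 on array 1 and 1.64 on array 2, with a mean of 1.36 ± 0.40, or 2.57-fold higher. With the main processing this call rested on that probe alone. In order of brightness the other measured probes of Apob read 0.30 ± 0.091, 0.28 ± 0.27, 0.29 ± 0.022 and 0.43 ± 0.30, above 0 but short of the rule. For the dim probes among them the ratio depends on how background is treated. The scanner software's ratios put the dimmest at 1.47, past the rule on both arrays, and the next dimmest at 0.88. The mean over all 5 probes was 0.53. The next brightest probe had net signals of 885 and 970.5 in untreated RNA and of 974 and 1119 with RankL, which nearly met, and the dimmest did not stand well above background in the untreated RNA of either array.

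The gap between the highest and lowest probe of Apob was 1.08. Among 2968 genes with several measured probes the median gap was 0.183, and 52 of them (1.75%) exceeded that of Apob. Of 9 genes with 5 measured probes, whose median gap was 0.352, 1 exceeded it. Where on the Apob transcript each probe lies was not analysed here. The probes of Rbp2, Apoc3 and Dgat1 were within 0.5 of each other, and those of Fabp2 were 0.50 apart, just over that margin.

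**Figure D3:**
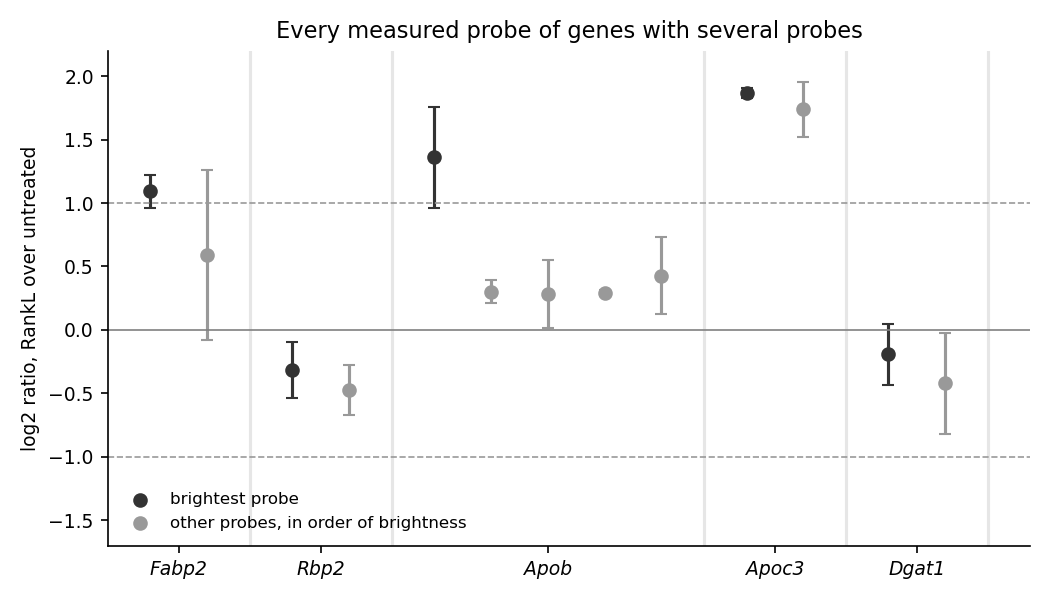
Log2 ratio of RankL over untreated (y axis, mean ± SD of the 2 arrays) for each measured probe of the 5 genes with several probes (x axis), with the brightest probe in black and the others in grey. Dashed lines mark 1 and -1. Both Apoc3 probes lie above 1, while 1 of 5 Apob probes does and the other 4 lie between 0.28 and 0.43.

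In the order of their ratios the apolipoproteins ran Apoa4, Apoa1, Apoc3 and Apob. Apoa4 exceeded Apoa1 by 0.57 ± 0.32 and Apoc3 by 0.70 ± 0.63, on both arrays. Apoa1 minus Apoc3 was 0.35 on array 1 and -0.093 on array 2, so that these neighbours in the order did not differ beyond the spread of the arrays. Apoa4 minus Apob was 1.20 ± 0.99, again with the same sign on both arrays but with widely different sizes.

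Apoa1, Apoc3 and Apoa4 are adjacent on mouse chromosome 9, with Apoa5 next to them. Apoa5, a liver-made activator of triglyceride clearance, was at 0.15 ± 0.13, dim, and well above background in untreated RNA on 1 of 2 arrays. On the other flank, Sik3 was at 0.071 ± 0.57, Pafah1b2 at -0.049 ± 0.19 and Sidt2 at 0.64 ± 0.23. Beyond Apoa5, Zpr1 was at 0.020 ± 0.0028 and Bud13 at -0.027 ± 0.33. None of these 6 measured neighbours, with the dim Apoa5 among them, met the rule, whereas Apoa1, Apoc3 and Apoa4 did. Apob lies on chromosome 12, away from the cluster.

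**Figure D4:**
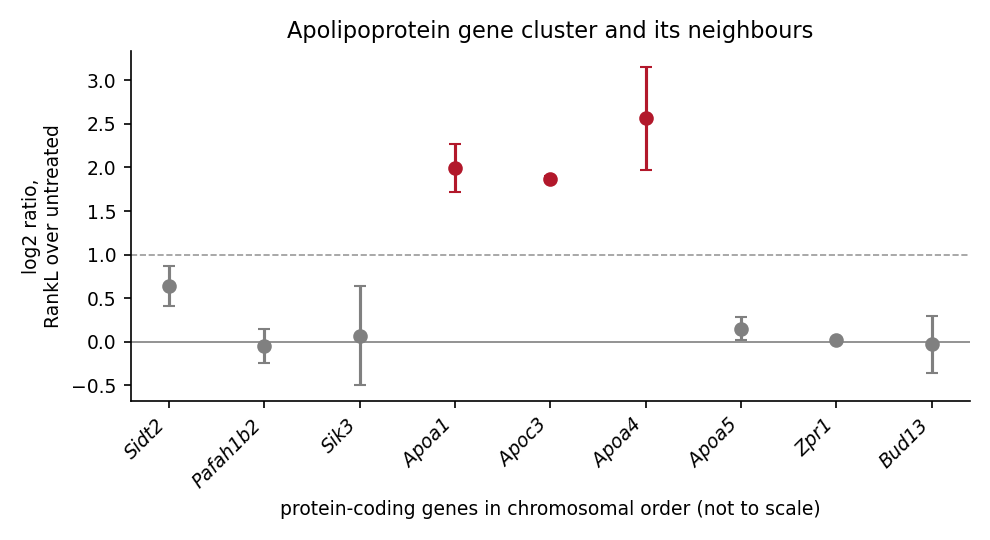
Log2 ratio of RankL over untreated (y axis, mean ± SD of the 2 arrays) of the measured protein-coding genes around the apolipoprotein cluster of mouse chromosome 9, in chromosomal order and not to scale (x axis). Red points met the size rule and grey points did not, and the dashed line marks 1. Apoa1, Apoc3 and Apoa4 lie between 1.87 and 2.56, and their measured neighbours between -0.049 and 0.64.

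Mttp and Dgat1 act where the particle is built. Mttp, the microsomal protein that transfers triglyceride onto Apob, gave net signals of 324 and 311 in untreated RNA and of 184 and 175 with RankL. The RankL signals were lower on both arrays. The ratio was -0.51 on array 1 and -0.61 on array 2, with a mean of -0.56 ± 0.072, or 1.47-fold lower, which exceeded the SD of the arrays but did not meet the rule. Mttp minus Apoa4 was -3.12 ± 0.52, so the loading protein and this chylomicron protein did not share a direction.

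Dgat1, an enzyme of the last step of triglyceride synthesis, gave net signals of 2091 and 2307 in untreated RNA and of 1673.5 and 1720 with RankL. Its ratio was -0.021 on array 1 and -0.36 on array 2, with a mean of -0.19 ± 0.24, within the spread of the arrays. The dimmer probe read -0.42 ± 0.40.

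Cd36, a scavenger receptor that takes up long-chain fatty acids, was barely above background. Its net signals were 32.5 and 43.5 in untreated RNA and 24.5 and 25 with RankL, where it was well above background on 1 of 2 arrays. The ratio was -0.20 on array 1 and -0.22 on array 2, with a mean of -0.21 ± 0.015. At this signal the ratio depends on how background is treated. The scanner software's own ratios put Cd36 at -1.12, which met the rule, and with those ratios 8.92% of all genes were higher and 6.07% lower.

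The wider pathway was described with a list of 82 other genes of lipid absorption, of which 79 had a probe and 64 were measured. Of these, 5 were higher and 2 lower, which was close to the shares of 5.47% and 2.5% over all measured genes, and the median was 0.10. The other 57 genes met the rule in neither direction. When only genes above background in both RNAs were counted, 4 of 62 were higher and 2 lower, against 4.64% and 2.47% of all such genes.

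At the brush border 0 of 7 measured genes, listed for lipid uptake or sterol export, met the rule, with a median of -0.28. Abcg5, a subunit of the sterol export pump, was at -0.093 ± 0.32. Got2, listed here as a membrane fatty acid-binding protein, was at -0.36 ± 0.27. In the cytosol 1 of 7 binding and activation genes was higher. This was Fabp4, a fatty acid-binding protein best known from adipocytes and macrophages, at 2.30 ± 0.069. Untreated RNA was not well above background for it on 2 of 2 arrays, so the gene was at least 4.29-fold higher, and its other probe read 1.34. The scanner software's ratios put Fabp4 at 5.62. None of the adipocyte markers was measured, and Cd14, the leukocyte marker that was, stood at 1.21. The abundant acyl-CoA-binding protein Dbi was at -0.061 ± 0.060 and the sterol carrier Scp2 at -0.20 ± 0.033.

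Among 3 measured retinoid genes none met the rule. Isx, the homeobox repressor of carotenoid uptake, was at -0.39 ± 0.11 and Stra6, a receptor for retinol-binding protein, at 0.77 ± 0.37. Rbp2 was therefore not alone in staying within 2-fold among the genes of retinol handling.

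Esterification held a contrast of its own among 12 measured genes. Mogat2, which starts triglyceride synthesis from absorbed monoglyceride, was at -1.69 ± 0.27, or 3.23-fold lower, on 2 of 2 arrays. Dgat2, the alternative to Dgat1 for the final step, was at 1.38 ± 0.029, or 2.6-fold higher, although its 3 probes ran from 0.69 to 1.38. The acyltransferases Gpat4, at 0.15 ± 0.024, and Agpat3, at 0.063 ± 0.039, were near 0, as Dgat1 was.

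Of 5 other measured genes listed with the apolipoproteins, 1 met the rule. Apobec1, the deaminase that edits Apob mRNA to give the short intestinal form of the protein, was at 2.25 ± 0.35, or 4.76-fold higher, with another probe at 0.51 and a mean over both of 1.38. Apoe was at 0.24 ± 0.086 and Apol7a at 0.43 ± 0.040. Another 5, Apoa2, Apoc1, Apoc4, Apod and Apoh, were not well above background, so for much of the apolipoprotein family no ratio was given.

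None of 10 chylomicron assembly and export genes met the rule, with a median of 0.20 and a range of -0.62 to 0.87 that takes in the -0.56 of Mttp. The brightest were the cargo receptors Tmed2, at -0.14 ± 0.19, and Surf4, at 0.60 ± 0.18, whose other probe read -0.036. Among 8 lipid droplet genes 1 was higher, the triglyceride lipase Pnpla2, at 1.02 ± 0.43, with 0.72 on array 1 and another probe at 0.64. Its call was lost with the scanner software's ratios (1.00, just under the rule), with median centring (0.91) and with the mean over its probes (0.83). The droplet coat proteins Plin3 and Plin2 were at 0.56 ± 0.19 and 0.39 ± 0.076.

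Among 12 measured regulators 1 was higher and 1 lower, with a median of -0.28. Creb3l3, a membrane-bound factor of liver and gut that activates apolipoprotein genes, including Apoa4, was at 1.22 ± 0.23, or 2.33-fold higher. Nr1h4, the bile acid receptor FXR, was at -1.75 ± 0.086, or 3.36-fold lower. Its size depended on the treatment of background, with -2.17 at an offset of 16 and -3.14 by the scanner software. The bright regulators Srebf1 and Cdx2 were at -0.19 ± 0.13 and -0.29 ± 0.0066.

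**Figure D5:**
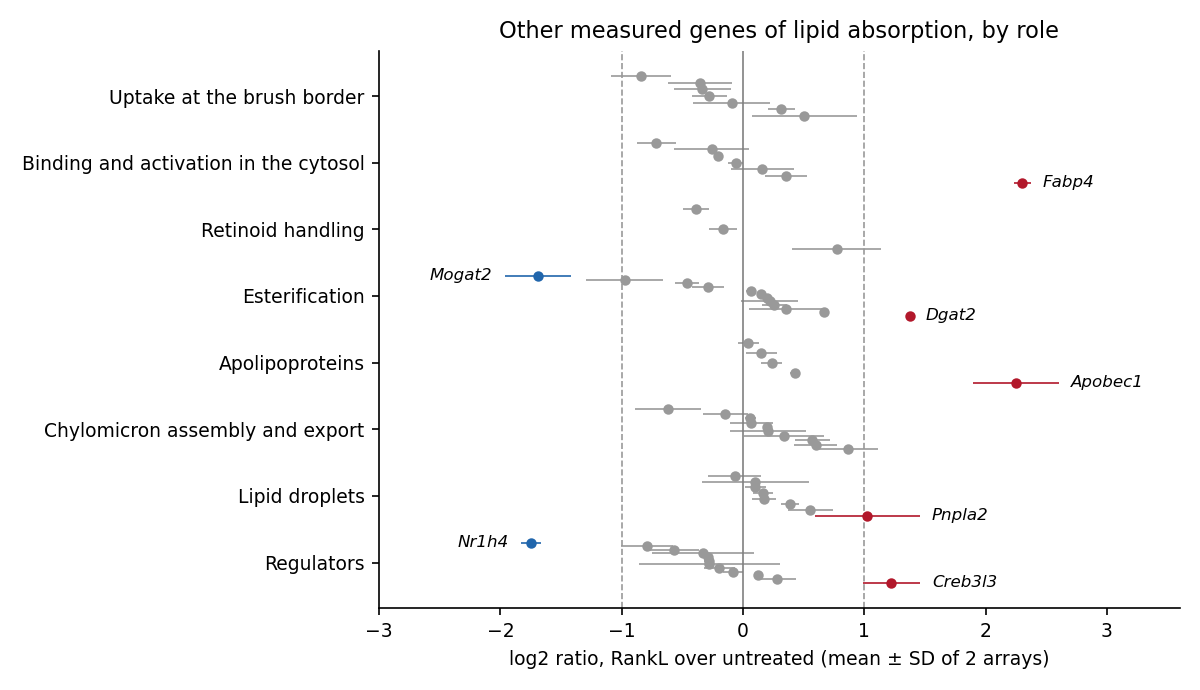
Log2 ratio of RankL over untreated (x axis, mean ± SD of the 2 arrays) of the 64 measured other genes of lipid absorption, in rows by role (y axis), with genes that met the size rule in red (higher) or blue (lower) and named, and the others in grey. Dashed lines mark 1 and -1. Outside the lines lie 5 higher and 2 lower genes, in no more than 2 of any role.

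Fabp1 is a classic target of PPAR-alpha, and other targets of that receptor were set beside it. Of 17 measured, 3 were higher and 2 lower, against 5.47% and 2.5% of all measured genes, and their median was 0.038. Of the 3 higher, 2 were measured through the RankL RNA alone. Acot1, an acyl-CoA thioesterase, was at -3.02 ± 0.091, the same mean as Fabp1 with the main processing only. With the scanner software's ratios Acot1 was at -3.60 and Fabp1 at -2.91. With median centring Acot1 was at -3.12 and Fabp1 at -3.35. Acaa2, a mitochondrial thiolase, was at -1.69 ± 0.020. Creb3l3 was higher, as given above. Vnn1 and Pdk4 were higher as well, at 1.27 and 1.03, or 2.87 and 3.91 with the scanner software's ratios. Both were dim in untreated RNA on each array, and the bounds were at least 2.41-fold for Vnn1 and at least 1.98-fold for Pdk4. The bright targets Cpt2 and Plin2 were at 0.62 ± 0.42 and 0.39 ± 0.076. Ppara, the receptor gene, was at -0.79 ± 0.22, or -1.26 with the scanner software's ratios, and was added to this account after its value was seen.

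Enterocytes change their program along the villus and along the gut, and lists for these zones were set beside the lipid genes. Of 6 measured villus tip genes, where Apoa4 also belongs, 3 were higher, against 5.47% of all measured genes, and 0 lower, against 2.5%. Their median was 1.11. The higher genes were the adenosine deaminase Ada at 1.98 ± 0.30, the nuclear RNA Neat1 at 1.87 ± 0.26, and Creb3l3. Klf4 and Egfr, the brightest of the others, were at 0.25 ± 0.25 and 0.035 ± 0.32, and the probes of Egfr ran from -0.46 to 0.035. Among the 6, 1 gene that did not meet the rule was measured through the RankL RNA alone. Of 9 genes of mid-villus absorption, 2 were higher, against 5.47% of all measured genes, and the median was 0.52. The 2 were the aminopeptidase Anpep at 2.81 ± 0.23 and the fructose transporter Slc2a5 at 1.85 ± 0.12. The brightest of these 9, the sucrase-isomaltase gene Sis, was at 0.52 ± 0.13 and met the rule in neither direction.

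Of 5 villus bottom genes 2 were higher, against 5.47% of all measured genes. These were the secreted lectin Reg1 at 3.63 ± 0.54 and the chemokine Ccl25 at 1.19 ± 0.43, whose other probe read 0.54. Another 2 were lower, against 2.5% of all, the glutathione transferase Gsta1 at -2.97 ± 0.099 and the cytokine Il18 at -1.33 ± 0.050. The call of Ccl25 was lost with median centring (0.83), with the mean over its probes (0.86) and on array 1 alone (0.89). With the scanner software's ratios Reg1 was at 4.46 and Il18 at -2.13. Gsta1 was thus lower by nearly as much as Fabp1. Of 3 measured proximal genes 0 met the rule, with a median of 0.076. Of 3 measured distal genes 2 were higher, against 5.47% of all measured genes. The 2 were the bile acid exporter subunits Slc51b at 2.02 ± 0.25 and Slc51a at 1.14 ± 0.25 (0.97 on array 1, under the rule there). The bile acid importer Slc10a2 was at 0.16 ± 0.0093. Fabp6, the ileal bile acid-binding relative of Fabp1, was not well above background.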

How the data were processed

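Total RNA of RankL-treated and untreated mouse organoids was measured on a dye-swapped pair of dual-colour Agilent arrays. The deposited scanner output holds spot intensity in both channels as the median over pixels of each spot and of the area around it, not normalized, per the file headers. Per the file headers, Agilent Feature Extraction, the scanner software, subtracted background and normalized the dyes to give the deposited log10 ratios (red over green). The headers give its version as 10.5.1.1 and the submitters' processing notes as 8.5.1.1. The deposited series matrix holds the same log10 ratios turned to RankL over untreated, with a largest difference of 5e-06 and a median of 0 in each column. Deposited flags of 0 or 1 mark spots well above background, saturated spots and outliers, per the file headers.

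Normexp with an offset of 50 corrected the background (limma 3.58.1, R 4.3.3), and ratios were normalized by loess within each array. The 1639 control spots of 45018 had weight 0, and 170 and 164 outlier spots were left out. Spots of a probe were averaged, every ratio was expressed as RankL over untreated, and the mean of the arrays was 1 replicate. The offset draws the ratios of dim spots toward 0. A probe was measured if 1 RNA was well above background for it on each of the arrays (if printed 10 times, in at least 0.5 of its spots), as 16458 of 41174 were. Names came from RefSeq accessions matched to a table of GRCm38.p6, for 26918 probes, and a gene took its brightest measured probe. Where a gene was dim in 1 RNA on both arrays, the bound sets the bright signal against the lowest signal of any probe well above background (or that of the dim probe itself, if higher), per channel after loess and Aquantile. Python 3.11.15 made counts and figures. The calculations were tested on simulated data.

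The members and lists were chosen with earlier results of these data known. Named genes were all members, every gene of the lipid pathway, PPAR target and enterocyte zone lists that met the size rule and, per role, at most 2 of the brightest others. Neighbours of the apolipoprotein cluster were named by position, and marker lists are given as counts and ranges. Alternatives were offset 16, the scanner software's ratios, median centring, no filter on dim probes, a filter on both RNAs, the mean over a gene's probes, each array alone and a size rule of 0.58.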

Additional observations from a re-analysis of the deposited data

How the results depend on the processing

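Fabp1 was lower and Apoa1, Apoa4 and Apoc3 were higher by the size rule under every alternative tried, and Fabp1 minus Apoa4 stayed between -6.20 and -4.96. The count of lipid absorption genes called higher was 3 with the mean over measured probes, which left out Fabp2 and Apob, and 4 with median centring or on array 2 alone, which left out Fabp2. The count called lower was 2 with the scanner software's ratios, which added Cd36. The median over the 10 genes was 0.27 with median centring, 0.16 with the mean over probes and 1.09 over the 9 genes above background in both RNAs. Of the 64 other lipid genes, 9 were higher and 7 lower with a size rule of 0.58, 5 were lower with the scanner software's ratios and 4 were lower on array 1 alone. Over all measured genes those ratios gave 1148 higher and 781 lower, and the 0.58 rule 1406 and 952. With 1 RNA pair there is no estimate of the spread between cultures. Signals near background, as for Cd36, limit the size of a ratio, and no paired analysis was possible because each group holds 1 RNA.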
